A study of Arabidopsis thaliana with 6 samples.

Results

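A set of 195 probe sets of Arabidopsis thaliana leaves stood at least 3-fold higher in the flu mutant than in its wild type after 2 h of light, and less than 1.5-fold higher after 30 min and after 60 min. They were chosen by those measured differences, from 22746 probe sets on the array, of which 13062 reached a signal of 185 on at least 1 array and could enter. The difference was taken as log2((flu + 50)/(Ler + 50)) on the deposited signals, and all log2 differences and folds below are on this scale. Since the contrast of the genotypes at all 3 times chose the set, its values are a description and no test was made on them. The set holds 86 probe sets of 1 named gene, 5 of several genes and 104 that are unnamed here.

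The samples were rosette leaves of 2 genotypes in the ecotype Landsberg erecta, the mutant flu (allele flu1-1) and the wild type Ler. All plants were 3 weeks old and not yet bolting, had grown in continuous light, and were placed in the dark for 8 h before the light returned for 30 min, 60 min or 2 h. Each genotype and time is 1 ATH1 array made from RNA pooled over 2 biological experiments of 5 to 6 plants, so there are 6 arrays, no replicate of any value, and no array from before the light returned. A difference that arose in the dark and one that arose in the light cannot be told apart at 30 min. The deposited value is a MAS5 signal, the brightness of a probe set in linear units, and precision is limited by having so few arrays.

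FLU is a plastid protein that restrains the first step of tetrapyrrole synthesis in darkness. Without it, protochlorophyllide collects in the dark and acts as a photosensitiser that passes energy to oxygen in the light, so that singlet oxygen forms inside plastids. Plants are known to answer reactive oxygen and reactive lipid products in waves. Early genes are rich in transcription factors and signalling proteins, while enzymes that attach sugars or glutathione to harmful compounds, and transporters that export them, belong to the detoxification response.

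The trimmed mean signal was 500.0 on each array, which the scaling before deposit sets and which says nothing of array quality. Some control genes are probed near both ends of the transcript. Their ratio of late to early end at 2 h was, in flu and Ler, 1.16 and 1.51 for ubiquitin, 1.68 and 2.03 for actin and 0.87 and 0.92 for GAPDH. The actin ratio at 30 min was higher in flu (2.08 against 1.43), as was that of GAPDH at 60 min (0.88 against 0.86). The other ratios at 30 and 60 min were higher in Ler. The part of this in the late set was not tested. Of 7 leaf mesophyll markers 4 had a named probe set, and LHCB4.1, LHCB4.2, RCA and PRK, genes of light harvesting and carbon fixation, had signals between 4036 and 17006 in flu and between 7002 and 23291 in Ler. At 2 h all 4 were lower in flu, with log2 differences of -0.58, -1.42, -0.32 and -0.65, and at 30 min all 4 were lower too, at -0.25 to -0.49. The part of this in the differences of the late set was not tested. The single named marker of flower and pollen, AT5G10130, was at 7.91 to 13.8 in flu and 12.3 to 76.9 in Ler, and no marker of seed or root had a named probe set. The flu array of 30 min had the dimmest hybridisation controls (their geometric mean was 743 there and at least 1077 elsewhere). Its part in the differences at 30 min was not tested.

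At 2 h the set stood a median 4.43-fold higher in flu (log2 difference 2.15, from 1.59 to 5.60). Of its probe sets 8 were at least 16-fold higher in flu, 28 at least 8-fold and 112 at least 4-fold, and the remaining 83 lay between 3-fold and 4-fold. At the earlier times, where the rule bars only higher values, the median log2 difference was -0.11 at 30 min and 0.16 at 60 min. The medians over all 13062 probe sets above the floor were -0.04, -0.08 and -0.20 at the 3 times. Of those 13062, 825 (6.32%) were at least 3-fold higher in flu at 2 h, so the late set makes up 23.6% of them and 1.49% of all probe sets above the floor. The others at 2 h were already at least 1.5-fold higher at 30 min (352) or first at 60 min (278).

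**Figure D1:**
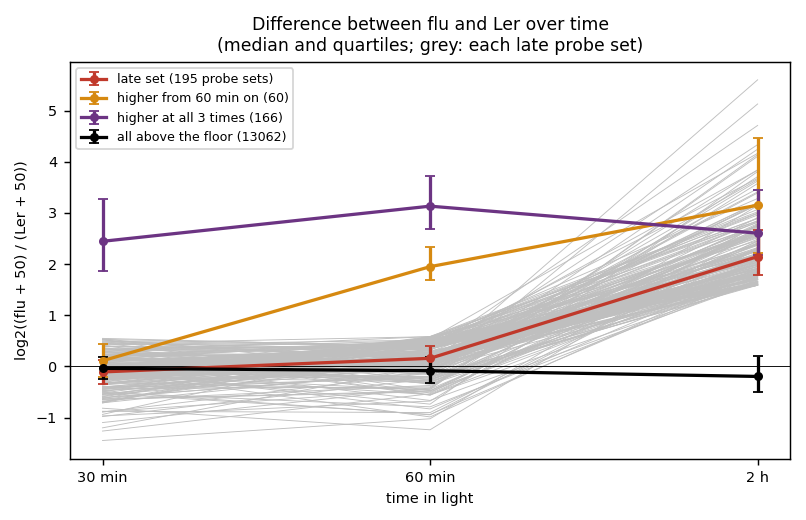
Log2 differences between flu and Ler (vertical axis, 50 added to each signal) by time in the light. Grey lines are the 195 late probe sets, and coloured points with bars are the median and quartiles of the late set, of 60 probe sets higher from 60 min on, of 166 higher at all 3 times and of all 13062 above the floor. The late set lies near 0 at the first 2 times (medians -0.11 and 0.16) and at 2.15 at 2 h.

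Before 2 h the set was dim. Its median flu signals at the 3 times were 173, 219 and 1009, those of Ler 187, 204 and 146. For 74 probe sets the flu array of 2 h was the only one of the 6 with a signal of 185 or more, and for 190 it was the brightest array, against 256 and 2156 of all 13062. In Ler, 79 of the 195 (40.5%) stayed below 185 at all times, against 5.80% of all probe sets above the floor. The share was 39.2% among the 166 probe sets at least 3-fold higher at all 3 times, and 60% among the 60 higher from 60 min on. The rule favours a bright flu array and a dim Ler array at 2 h, and a member may pass the floor through flu at 2 h alone, so nothing is read from these shares. Folds of such dim probe sets depend on the added 50. In these bulk leaf samples, fewer cells of a type and less RNA per cell cannot be told apart.

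The most separated probe set has no gene name in the annotation used. Its signals, in the order of time, were 1.26, 2.41 and 2861 in flu, and 2.44, 1.91 and 9.95 in Ler. It was thus near the bottom of the scale on 5 arrays and bright on 1. The next is also unnamed, with 40.2, 84.0 and 2111 in flu against 28.2, 99.9 and 11.7 in Ler.

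Of the 86 named members, 40 were placed in role groups after their values had been seen. The group of enzymes and carriers of conjugation and export held 9 of them, with log2 differences at 2 h of 1.70 to 4.33. No such grouping was made over all probe sets above the floor, so nothing is read from this count. Signals of UGT76E12, a UDP-glycosyltransferase, which joins a sugar to small molecules, were 1.40, 20.5 and 1065 in flu at the 3 times, against 2.54, 14.5 and 5.25 in Ler. At 30 and 60 min both genotypes were dim, and at 2 h flu alone was bright (log2 difference 4.33). UGT73B4 had 4.55, 6.77 and 254 in flu against 21.9, 5.12 and 9.04 in Ler, and UGT73C1 had 3.09, 46.6 and 272 in flu against 27.8, 31.8 and 14.3 in Ler. Their log2 differences at 2 h were 2.37 and 2.32, and with an offset of 16 they were 3.43 and 3.25, with an offset of 100 both 1.70. UGT87A2 began from a brighter level, with 638, 865 and 2533 in flu against 826, 780 and 616 in Ler (log2 difference 1.95), and AT5G12890, of the same enzyme family, stood at 1387 in flu against 393 in Ler at 2 h.

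The list of UDP-glycosyltransferases, matched by gene symbol, held 51 named probe sets, of which 23 were above the floor. Of these 5 were at least 3-fold higher in flu at 2 h and 1 at least 2-fold lower (UGT88A1, -1.24). Over time the median log2 difference of the list was -0.11, 0.13 and 0.52. The fifth of the 3-fold higher genes, UGT73B5, is not in the late set because it was already higher at 60 min, with log2 differences of -0.20, 2.27 and 4.75. UGT76E11, a relative of UGT76E12, had -0.53, -1.03 and 1.21 and stayed below 3-fold. UGT73B5 and UGT73B4 thus differed in the time at which flu and Ler separated, on single arrays and with UGT73B4 dim before 2 h. UGT76E11 and UGT76E12 were both higher in flu at 2 h and differed in size.

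GSTU25, a tau class glutathione S-transferase, which attaches glutathione to reactive compounds, had 38.0, 60.2 and 545 in flu against 94.2, 64.0 and 45.7 in Ler. Flu was below Ler at 30 min, level with it at 60 min and above it at 2 h (log2 differences -0.71, -0.05 and 2.64). Of the 7 glutathione S-transferase genes above the floor, GSTU22 was the other gene at least 3-fold higher at 2 h (2.48), but had 0.64 at 60 min and is outside the set. GSTU27 stood on the low side, at -1.83.

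Genes of 3 MATE transporters, named for multidrug and toxic compound extrusion, were in the set. AT1G66760 had 75.6, 73.9 and 1548 in flu against 57.5, 72.3 and 100 in Ler, and AT2G04050 had 79.3, 107 and 932 in flu against 78.1, 140 and 80.7 in Ler. AT5G65380 was far brighter throughout, with 905, 1511 and 5297 in flu against 1099, 1349 and 1357 in Ler. In all of them the flu array of 2 h was brighter than the other 5 (log2 differences 3.41, 2.91 and 1.93), and in Ler AT2G04050 was brightest at 60 min. The list of MATE and ABC transporters, matched by gene symbol, had 1 gene above the floor, AT5G52050, which is no member, with log2 differences of 4.0, 3.41 and 3.68.

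Jasmonate is a stress hormone made from oxidised membrane lipids, and enzymes that modify it were among the late genes. AT2G38240, of the 2-oxoglutarate-dependent oxygenases that hydroxylate jasmonic acid, had 64.4, 158 and 3972 in flu against 162, 178 and 162 in Ler. The genotypes were alike at 60 min, and at 2 h flu was 19.0-fold higher. JMT, which methylates jasmonic acid to its volatile ester, had 34.1, 75.6 and 556 in flu against 40.4, 81.0 and 103 in Ler (log2 difference 1.99 at 2 h). The 4 genes of the jasmonate list above the floor were all at least 3-fold higher at 2 h, and the other 3 came earlier. OPCL1, of jasmonate synthesis, had log2 differences of 1.74, 2.59 and 3.41, ORA47, a transcription factor of jasmonate synthesis, had 0.95, 3.06 and 1.84, and JRG21 had 0.23, 1.1 and 2.33. With so few genes, and with JRG21 given no role here, no order of jasmonate synthesis and turnover in time is read from these values.

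Genes tied to mitochondrial stress and to the breakdown of sugars made a further group. AT2G21640, known as UPOX, a mitochondrial protein gene that marks oxidative stress, had 169, 335 and 3900 in flu against 174, 245 and 259 in Ler. Its log2 differences were -0.03 at 30 min and 0.39 at 60 min, and at 2 h flu was 12.8-fold higher. The list of mitochondrial stress and alternative respiration had 8 genes above the floor, with medians of -0.26, 0.19 and 2.91 at the 3 times. Of these, 6 were at least 3-fold higher at 2 h, as were 6.32% of all probe sets above the floor. This list, like the others, was written with earlier results of these data known. Nothing is therefore read from the counts or medians of any list. GSTU25 and AT2G04050, on this list, are also in the group of conjugation and export. GSTU25, AT2G04050 and AT2G21640 are in the late set, whereas AT5G51440 (0.50, 2.26 and 5.16), NDB2 (-0.17, 1.05 and 2.91) and AT2G41730 (-0.39, 0.91 and 4.76) had separated by 60 min. NDB2 is an alternative NADH dehydrogenase of mitochondria, and AT5G51440 a small heat shock protein of that organelle.

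PDC2 encodes a pyruvate decarboxylase of the fermentation pathway. Its signals were 797, 2169 and 4525 in flu against 816, 1817 and 1238 in Ler. Both were more than 2-fold brighter at 60 min than at 30 min, and at 2 h flu was higher still while Ler was lower. AT4G17260, lactate dehydrogenase, the other branch of fermentation, had 756, 753 and 2731 in flu against 679, 759 and 701 in Ler. AT5G56350, a pyruvate kinase, had 4881 in flu against 1566 in Ler at 2 h, and AT5G51830, a fructokinase, had 1230 against 145. Their log2 differences at 2 h were 1.61 and 2.72, with -0.18 and -0.27 at 30 min.

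**Figure D2:**
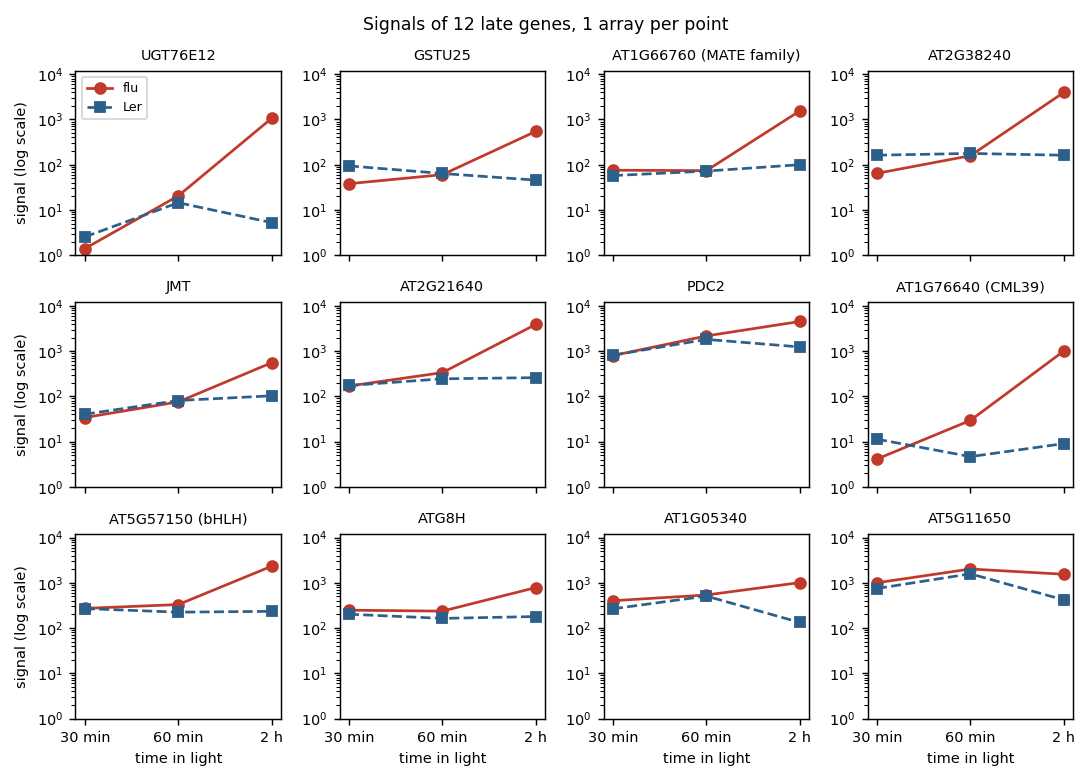
Deposited signals (vertical axis, log scale) of 12 late genes by time in the light, with flu as red circles and Ler as blue squares, 1 array per point. The widest gaps are at 2 h, as for AT2G38240 (3972 in flu against 162 in Ler), whose flu signal was below that of Ler at 30 min (64.4 against 162). In AT5G11650 flu was no higher at 2 h than at 60 min and Ler was lower.

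Among regulators, AT1G76640 (CML39), a calmodulin-like calcium sensor, had 4.13, 29.5 and 1009 in flu against 11.3, 4.66 and 9.04 in Ler. All Ler signals and the first 2 flu signals were dim. Its log2 difference at 2 h was 4.17, but 5.36 or 3.35 with an offset of 16 or 100. Of the 7 calmodulin-like genes above the floor 4 were at least 3-fold higher at 2 h, and AT1G76640 is the only one of them in the late set.

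Transcription factor genes of the basic helix-loop-helix (bHLH) family were in the set as well. AT1G10585 had 38.6, 76.8 and 2545 in flu against 44.6, 161 and 135 in Ler. Flu was lower than Ler at 60 min (-0.74) and 14.0-fold higher at 2 h. AT5G57150 had 272, 331 and 2333 in flu against 269, 224 and 234 in Ler, a log2 difference of 3.07 at 2 h. NAI1, a bHLH factor needed for endoplasmic reticulum bodies, which store defence enzymes, was dim on 5 arrays and reached 198 in flu at 2 h, against 12.2 in Ler. Its log2 difference at 2 h, 2.00, was 2.93 with an offset of 16 and 1.41 with one of 100, which is below the 3-fold limit. AT4G08170, an inositol phosphate kinase, had 182, 286 and 1995 in flu against 227, 174 and 235 in Ler, and PRN, a pirin, which in plants binds a G protein subunit, stood at 646 in flu against 103 in Ler at 2 h. No gene of the WRKY, bZIP or NAC lists was in the set, out of 6, 13 and 1 above the floor. These lists match gene symbols and so miss family members that the annotation gives by locus alone. The lists of cytochrome P450s (9 genes above the floor), ubiquitin ligases (9) and photosynthesis (28, with a median log2 difference of -0.23 at 2 h) also held no member. Of all probe sets above the floor 1.49% were in the late set. At that share lists of these sizes can hold no member, so nothing is read from the absence of these families.

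The group of protein folding and turnover had 4 named members. ATG8H, whose product coats autophagosomes, the vesicles that carry cell material to the vacuole, had 248, 236 and 785 in flu against 202, 163 and 180 in Ler. It was 3.64-fold higher in flu at 2 h, and the other 10 of 11 autophagy genes above the floor were under 3-fold, with a list median of 0.31. Fes1B, an exchange factor of Hsp70 chaperones, had 474, 450 and 1208 in flu against 309, 333 and 335 in Ler. SBT3.5, a subtilisin-like protease, was lower in flu at both early times and higher at 2 h, with 317, 358 and 2163 in flu against 625, 712 and 393 in Ler. In the list of Hsp70, Hsp90 and Hsp100 chaperones with their partners, 3 of 8 genes were at least 3-fold higher at 2 h, and none of them is in the late set.

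Stress and defence genes of several kinds were members, and the rule fixed their timing. AT2G04400, indole-3-glycerol phosphate synthase of the tryptophan pathway, which also feeds defence compounds, had 728, 1340 and 6152 in flu against 983, 1108 and 1232 in Ler. It has the highest flu signal at 2 h of the named members. AT2G34810, of the berberine bridge enzyme family, had 81.1, 147 and 779 in flu against 132, 142 and 154 in Ler. LCR66, a defensin-like peptide gene, had 33.9, 30.5 and 339 in flu against 31.7, 26.1 and 38.0 in Ler, and ATA27, a beta-glucosidase, had 223 in flu at 2 h against 6.45 in Ler. LTI30, a dehydrin that protects membranes in cold and drought, stood at 299, 463 and 1099 in flu against 269, 380 and 169 in Ler. For LTI30 both sides moved from 60 min to 2 h, flu to a higher and Ler to a lower signal.

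Lipid genes included AT1G73480, of the monoacylglycerol lipase family, with 589, 1618 and 5456 in flu against 986, 1278 and 891 in Ler. AT3G05500, of the proteins that coat lipid droplets, had 1058, 1972 and 4673 in flu against 999, 1508 and 1047 in Ler. TBL37, of a family that acetylates cell wall polymers, had 992, 949 and 3044 in flu against 968, 954 and 843 in Ler. In these bright genes the log2 differences at 2 h, 2.55, 2.11 and 1.79, depended little on the offset (2.59 with 16 and 2.49 with 100 for AT1G73480).

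**Figure D3:**
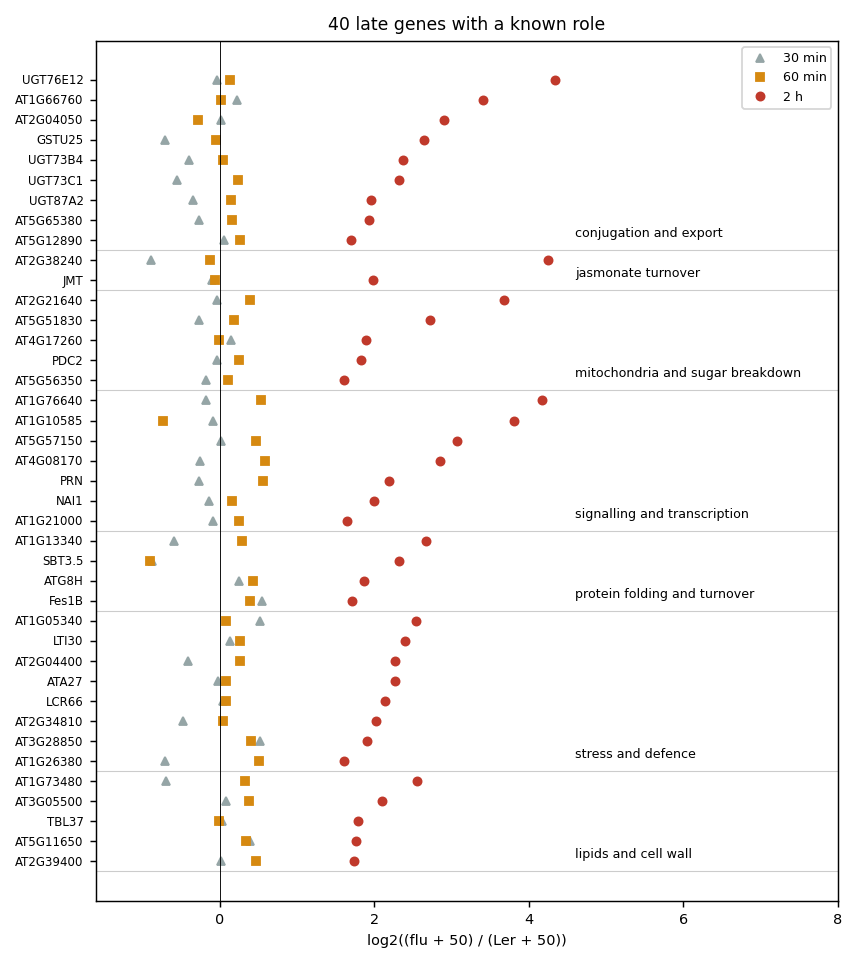
Log2 differences between flu and Ler (horizontal axis, 50 added to each signal) of the 40 late genes placed in role groups. Triangles are 30 min, squares 60 min and circles 2 h, with 1 array per genotype and time. The first 2 times lie between -0.90 and 0.58 in every row and the last between 1.61 and 4.33, by the rule that chose them. The groups of roles were made after the values had been seen.

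A further 46 named members were placed in no role group, and several of them ranked high. AT4G16680 had 7.77, 61.6 and 446 in flu against 40.4, 52.9 and 4.04 in Ler, and its log2 difference at 2 h was 3.20. AT1G68875 had 1.06, 2.50 and 478 in flu against 2.08, 1.68 and 8.89 in Ler, and AT1G74870 had 2.98, 9.0 and 342 in flu against 10.5, 8.4 and 8.07 in Ler. For both, the flu array of 2 h was the single bright one among dim values. AT3G56260 had 96.8, 135 and 412 in flu against 153, 162 and 16.8 in Ler, where flu was brighter and Ler dimmer at 2 h than at either earlier time. At the bright end, AT3G05220 had 2346, 2643 and 5204 in flu against 1908, 1924 and 1359 in Ler, and AT5G54170 had 1023, 1394 and 4018 in flu against 1159, 1187 and 1068 in Ler. Their log2 differences at 2 h were 1.90 and 1.86, near the 3-fold limit although the genes were among the 10 brightest named members in flu at 2 h.

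In some members of the role groups the genotypes parted in both directions at 2 h. AT1G13340 had 208, 454 and 1056 in flu against 340, 364 and 125 in Ler. AT3G28850, of the glutaredoxin family of redox proteins, had 252, 308 and 500 in flu against 160, 220 and 96.1 in Ler, and AT1G21000, a PLATZ zinc-binding protein gene, had 832, 1258 and 2024 in flu against 885, 1047 and 611 in Ler. AT1G26380, of the berberine bridge enzyme family like AT2G34810, had 81.3, 204 and 305 in flu against 166, 128 and 66.5 in Ler. In each of them flu was highest and Ler lowest at 2 h.

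The difference at 2 h can come from a higher flu signal or a lower Ler signal, and the members differed in this. From 60 min to 2 h, 162 of the 195 were at least 2-fold higher in flu (4.38% of all probe sets above the floor were), with a median log2 change of 1.81. Over the same hour 20 were at least 2-fold lower in Ler (1.00% of all), and 0 at least 2-fold higher (0.398%), with a median log2 change of -0.26. In Ler 141 of the 195 were lower at 2 h than at 60 min by any amount, against 49.6% of all. These signals entered the rule, which favours a low Ler signal at 2 h, so nothing is read from the shares.

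Flu signals at least 2-fold higher at 2 h with Ler within 1.5-fold were found for 130 members, AT2G38240, AT2G21640, AT5G57150 and AT5G65380 among them. At the other end, 33 members were less than 2-fold higher in flu at 2 h than at 60 min, and 16 of these less than 1.5-fold. For 26 the decrease in Ler was larger than the increase in flu on the log2 scale. AT1G05340, a gene of small cysteine-rich membrane proteins, had 402, 538 and 1010 in flu against 266, 508 and 133 in Ler, and its log2 changes from 60 min to 2 h were 0.85 in flu and -1.61 in Ler.

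In 3 members the flu signal was lower at 2 h than at 60 min. AT5G11650, of the same hydrolase family as AT1G73480, had 1001, 2019 and 1544 in flu against 748, 1581 and 418 in Ler. AT1G22890 had 1904, 1878 and 1564 in flu against 1541, 1238 and 475 in Ler. The remaining one, unnamed, had 108, 231 and 227 in flu against 164, 201 and 27.0 in Ler. All 3 had their lowest Ler signal at 2 h. AT1G22890 was lower in flu at 2 h than at both earlier times, while the other 2 were higher at 2 h than at 30 min. From 30 min to 2 h, 14 of the 195 were at least 2-fold lower in Ler (1.40% of all), with AT3G16330 (-1.74), AT2G39400 (-1.74) and AT3G56260 (-1.61) the most negative of the named ones. AT2G39400 had flu signals of 186, 122 and 183 against 183, 74.1 and 19.9 in Ler.

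**Figure D4:**
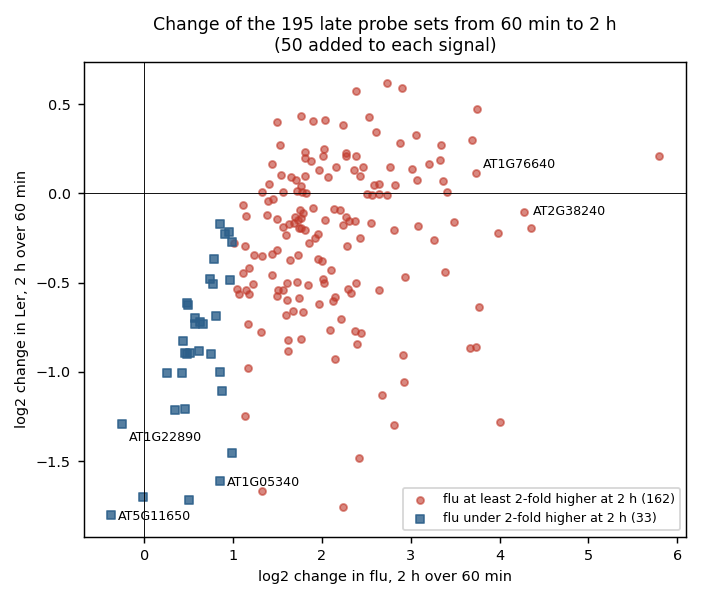
Log2 change from 60 min to 2 h in flu (horizontal axis) and in Ler (vertical axis) of the 195 late probe sets, 50 added to each signal. Red circles are the 162 at least 2-fold higher in flu at 2 h, blue squares the 33 below that. The rule makes the flu change exceed the Ler change by more than 1, so every square lies below 0 in Ler, down to -1.80 for AT5G11650. AT1G76640 lies at 3.74 in flu and 0.11 in Ler.

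Not all members were flat before 2 h. Between 30 and 60 min, 7 of the 195 (3.59%) were at least 2-fold brighter in flu, near the 2.75% of all. In Ler 7 (3.59%) were, against 0.727% of all. On the low side, 25 members (12.8%) were at least 1.5-fold lower in flu than in Ler at 30 min (4.23% of all). At 60 min 11 (5.64%) were, below the 8.71% of all. The rule bars only higher values in flu at these times, so nothing is read from these shares. AT1G66850 had the lowest log2 difference at 30 min of the 86 named genes, -1.20, with 16.1, 63.2 and 1223 in flu against 102, 63.3 and 51.2 in Ler. AT3G16330 had the lowest at 60 min, -1.24, with 80.9, 31.6 and 388 in flu against 181, 143 and 19.0 in Ler.

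Set beside probe sets with other timing, the late set had a lower median signal in flu at 2 h, 1009. The 60 probe sets under 1.5-fold at 30 min and at least 3-fold higher at 60 min and 2 h had median flu signals of 128, 692 and 2018 at the 3 times, against 110, 111 and 103 in Ler. The 166 at least 3-fold higher at all 3 times had 1603, 2601 and 1784 in flu against 224, 222 and 180 in Ler. In flu, the median log2 change from 60 min to 2 h was 1.81 in the late set, 1.04 in the set from 60 min on and -0.58 in the set of all times. All of these sets were cut from the same differences, so their contrast is a description.

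On the chromosomes, 2 pairs of the 86 named genes were direct neighbours in the order of the RefSeq annotation. AT1G61065 and LCR66 (AT1G61070) had log2 differences at 2 h of 1.95 and 2.14, with -0.04 and 0.04 at 30 min. AT3G17110, annotated as a transcribed pseudogene, and AT3G17120 had 2.21 and 2.07. A further 3 pairs lay within 10 genes of each other, AT1G66760 with AT1G66850, AT3G13910 with AT3G13950, and AT5G54860 with PDC2 (AT5G54960). Pairs were not counted among the other named genes above the floor, so no clustering is read from these.

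The thresholds cut through a continuous range. AT5G40690 (1.59), AT1G61360 (1.59) and AT3G04010 (1.60) were the named genes nearest inside the limit at 2 h, and AT5G64250 (1.58), AT1G03660 (1.58) and AT3G17800 (1.54) the nearest outside it. At 60 min AT4G08170 was the nearest inside (0.58) and an unnamed probe set the nearest outside (0.59). At 30 min Fes1B was the nearest inside (0.55), and the nearest outside was at 0.66. With an offset of 100 the difference at 2 h was below the limit for AT5G40690, AT1G61360, AT3G04010 and NAI1. It was also below for AT2G39400 (1.24), AT1G26380 (1.28), AT1G22890 (1.53), AT1G21000 (1.58) and AT5G56350 (1.58). Further named members fell below too, among them AT4G37900 (1.21), AT1G02813 (1.31), AT4G11350 (1.37), AT2G20720 (1.39) and AT1G07590 (1.42). These genes are examples and not the full list. The whole rule, with its limits at all 3 times, kept 142 members at this offset.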

How the data were processed

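The authors deposited 1 table of MAS5 signals, a linear intensity for each probe set, for 6 ATH1 arrays (MAS5 is named in the submitters' processing notes; its version is not given in the sources used here). Every array had a 2% trimmed mean of 500.0, so the authors had scaled the values before deposit, and they were used without further scaling. Because MAS5 corrects each signal by mismatch probes, dim values are uncertain. Of 22810 probe sets 64 controls were left out. Genotype and time came from the sample titles.

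The floor of 185 is the median of all values. In the platform annotation 13513 probe sets have 1 gene, 503 several and 8794 none, and 13436 matched the RefSeq table (TAIR10.1), used for names and gene order. The files name no build, so no coordinates are given. The members, the 29 gene lists (matched by symbol or locus) and all comparisons were chosen with earlier results of these data known, and 5 lists had no gene above the floor. The genes named were the 15 members with the largest difference at 2 h, the 10 brightest in flu at 2 h, up to 4 per list, those nearest the 3-fold limit and the 3 with the largest decrease in Ler, and those of the role groups, chosen after their values were seen. Roles are general knowledge, not from the files. With 1 array per genotype and time, and with the contrast used by the rule, no test was made. The selection was tested on simulated data, with changes planted only in bright probe sets and none near the limit at 2 h. That checks the code and says nothing of dim members or of those near the limits. Alternatives were other offsets, quantile normalization, other floors and thresholds, and, added after seeing the data, each early time left unused. Promoter motifs and sequences were not analysed here. Python 3.11.15, pandas 2.3.3, numpy 2.4.6, scipy 1.17.1 and matplotlib 3.10.9 were used.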

Additional observations from a re-analysis of the deposited data

How the results depend on the processing

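No paired analysis was possible because the labels give no replicate numbers and each genotype and time has 1 array. The late set numbered 195 probe sets, and 188 with an offset of 16, 161 with one of 100 and 206 after quantile normalization, which shared 161, 142 and 186 of them. It numbered 112 at 4-fold and 430 at 2-fold at 2 h, 306 and 118 with a wider (2-fold) and a narrower limit at the early times, and 473 when the 60 min arrays were unused. With the 30 min arrays unused it numbered 204, and dropping a limit can only add probe sets. The set numbered 131 with the floor at the upper quartile and 210 without a floor. The median log2 difference at 2 h, 2.15, was 2.26 and 2.12 with offsets of 16 and 100, 2.08 without a floor, 2.28 with the floor at the upper quartile, 2.61 and 1.5 at 4-fold and 2-fold, and 2.17 and 2.23 with the wider and narrower early limit. The 162 members at least 2-fold higher in flu at 2 h than at 60 min became 107 at 4-fold and 261 at 2-fold. With the narrower early limit they became 108. The 14 at least 2-fold lower in Ler at 2 h than at 30 min became 26 and 5 with offsets of 16 and 100, 8 with the higher floor, 5 and 27 at 4-fold and 2-fold, and 29 and 8 with the wider and narrower early limit. Members in any gene list, 10, became 6 with the higher floor. The other values, under the alternatives run for them, stayed within 1.5 times. Stricter limits take fewer probe sets by construction, and for the offsets the cause was not tested. The planned shares of promoters with motifs were not run, since no promoter sequences were used here.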
